A study of Mus musculus with 20 samples.

Results

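Expression of 10 genes of antigen presentation by major histocompatibility complex (MHC) class I was followed through 19 mouse liver tumor libraries. They are the heavy chain genes H2-K1 and H2-D1, the light chain gene B2m, the peptide supply genes Tap1, Tap2 and Tapbp, the transactivator gene Nlrc5 and the immunoproteasome genes Psmb8, Psmb9 and Psmb10. The members were chosen by name, from what their products do, but with earlier results of these data known. Counts of members set beside the share of all genes are therefore descriptive. Each member is among the 14633 genes of the deposited expression table. All 10 passed the filter on low values, which kept 14385 genes for testing.

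HEPA1-6 is a mouse hepatoma cell line, and here it was grown for 4 weeks as a subcutaneous tumor in C57/BL6 mice. Mice were given either control antibody or anti-CXCL10, an antibody that binds a chemokine, without or with GSK343, and bulk RNA of whole tumors was sequenced. GSK343 inhibits EZH2, the enzyme that places the repressive methyl marks on lysine 27 of histone H3, and CXCL10 draws T cells and natural killer cells that carry its receptor CXCR3. Control antibody alone had 4 libraries, and control antibody with GSK343, anti-CXCL10 alone and anti-CXCL10 with GSK343 had 5 each; a further sample labelled control antibody replicate 4 was not analysed here. All tumors come from this 1 cell line, and every library mixes tumor and host cells. Whether tumors come from separate animals is not stated in the labels, and the tests measure only the spread between these libraries. Sample numbers in the labels run from 1 to 10 within the control antibody and start again at 1 within anti-CXCL10, so a difference between the antibodies cannot be told apart from any difference between those sets of samples.

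Nearly every nucleated cell displays peptides of its own proteins on class I molecules, where CD8+ T cells read them. The proteasome cuts proteins into peptides, the TAP transporter carries the peptides into the endoplasmic reticulum, tapasin holds the empty class I molecule beside the transporter, and the loaded complex of heavy chain and beta-2-microglobulin travels to the surface. Interferon-gamma raises most of these genes, in part through IRF1 and in part through NLRC5, and it exchanges the catalytic subunits of the constitutive proteasome for those of the immunoproteasome. Tumor cells often lower the pathway, and in several tumor types EZH2 has been linked to that low state.

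Most of the genes lie close together on chromosome 17, in the mouse MHC. In the GRCm38 coordinates of the deposited table, Tapbp spans chr17:33915899-33929288 and H2-K1 spans chr17:33996017-34000333. Psmb9 (chr17:34181988-34187764), Tap1 (chr17:34187553-34197225), Psmb8 (chr17:34197721-34201454) and Tap2 (chr17:34203527-34216321) form a single cluster. H2-D1 is at chr17:35262730-35267499. B2m is at chr2:122147686-122153083, and Nlrc5 (chr8:94472763-94527272) and Psmb10 (chr8:105935728-105938392) are both on chromosome 8. The annotated bodies of Tap1 and Psmb9 share 212 bases on opposite strands, and Tap2, Tapbp and Psmb8 also overlap neighbouring genes. How the counting treated strand is not given in the sources, so reads in shared bases cannot be assigned to either gene. The class I heavy chain genes are near-copies of each other in parts, and how reads that match several of them were counted is likewise not given, so the split between H2-K1, H2-D1 and their relatives is uncertain.

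The promoters are shown first because several members carry the same short elements near their start, the kinds of element through which interferon regulatory factors (IRF), NF-kappaB and the enhanceosome that recruits NLRC5 are known to act on class I genes. Sequences are from RefSeq on GRCm38.p6, and windows were found for 8 of the 10 members; Tap2 and Nlrc5 are named only. The 250 bases before the start of H2-K1 (chr17:34000348-34000597, minus strand) and the 249 bases before the annotated gene B2m (chr2:122147437-122147685, plus strand) are given 5′ to 3′, for the heavy and the light chain of the same molecule. Capitals mark, in H2-K1 from left to right, the NF-kappaB consensus (both strands, overlapping matches), the IRF core AANNGAAA on the opposite strand, the TGACG core of the X2 box and the CCAAT box on the opposite strand. In B2m the IRF core comes first and the NF-kappaB consensus second, followed by TGACG and the CCAAT box.
H2-K1 upstream: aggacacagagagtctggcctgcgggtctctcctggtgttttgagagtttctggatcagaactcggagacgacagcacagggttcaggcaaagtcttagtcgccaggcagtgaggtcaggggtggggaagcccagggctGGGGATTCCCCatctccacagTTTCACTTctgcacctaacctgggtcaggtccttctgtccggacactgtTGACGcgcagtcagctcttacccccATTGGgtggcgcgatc
B2m upstream: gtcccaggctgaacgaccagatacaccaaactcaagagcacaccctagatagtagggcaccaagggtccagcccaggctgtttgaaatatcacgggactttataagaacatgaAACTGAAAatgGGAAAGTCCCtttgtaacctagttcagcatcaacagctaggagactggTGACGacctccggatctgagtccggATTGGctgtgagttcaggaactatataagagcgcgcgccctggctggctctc

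In H2-K1 and H2-D1 the NF-kappaB and IRF elements stand side by side, in a stretch of 30 bases that is shown for both heavy chains (chr17:34000429-34000458, minus strand, and chr17:35262923-35262952, plus strand). The capitals mark these elements.
H2-K1 element: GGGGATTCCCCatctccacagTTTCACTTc
H2-D1 element: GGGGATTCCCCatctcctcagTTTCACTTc
The stretches differ at 1 of 30 bases, A18T, counted from 1 at the 5′ end with the H2-K1 base first. The 25 bases around TGACG (capitals) show how far the flanks of that core are shared: H2-K1 (chr17:34000374-34000398, minus), H2-D1 (chr17:35262983-35263007, plus), B2m (chr2:122147599-122147623, plus) and Tap1 (chr17:34187460-34187484, plus), each read on the gene's own strand.
H2-K1 X2 core: cggacactgtTGACGcgcagtcagc
H2-D1 X2 core: gggacactgaTGACGcgctggcagg
B2m X2 core: aggagactggTGACGacctccggat
Tap1 X2 core: cagagacaggTGACGacagagggtc

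The 3 genes of the class I molecule itself, H2-K1, H2-D1 and B2m, held all 4 of these elements. Across all 32851 RefSeq windows of 300 bases, with both strands searched, AANNGAAA was present in 23.9%, the NF-kappaB consensus in 8.46%, TGACG in 20.8% and CCAAT in 37.4%. Tap1 and Psmb9 held TGACG and CCAAT, and Tapbp held CCAAT. The windows of Tap1 and Psmb9 share 275 bases, since the genes run apart from start sites 226 bases from each other, so their TGACG and their CCAAT are each 1 shared site. The interferon-gamma activated site TTCNNNGAA, present in 8.3% of all windows, was found in Psmb8 alone of the members, and none of these letters was in the window of Psmb10. The motifs were chosen after these sequences had been seen, the marked matches of different motifs do not overlap, and each match describes letters only.

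Levels are in FPKM, fragments scaled by transcript length and by the fragments mapped in the library, which allows genes to be set against each other. In control antibody tumors the light chain B2m was highest with a mean of 2874 FPKM ± 274 (SD, n = 4), followed by H2-D1 with 1167 FPKM ± 132. H2-K1 (170.0 FPKM) and Psmb8 (167 FPKM) came next and their libraries overlapped. Tapbp (100.4 FPKM) overlapped Psmb10 (85.8 FPKM), Psmb9 (49.6 FPKM) overlapped Tap1 (40.0 FPKM), and Tap1 overlapped Tap2 (29.4 FPKM). Nlrc5, whose product is a regulator rather than a part of the machinery, was lowest at 18.4 FPKM ± 3.46 and did not overlap its neighbour. The order was the same in all 4 groups except that Psmb8 and H2-K1, which overlapped each time, changed places in tumors given anti-CXCL10 with GSK343.

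**Figure D1:**
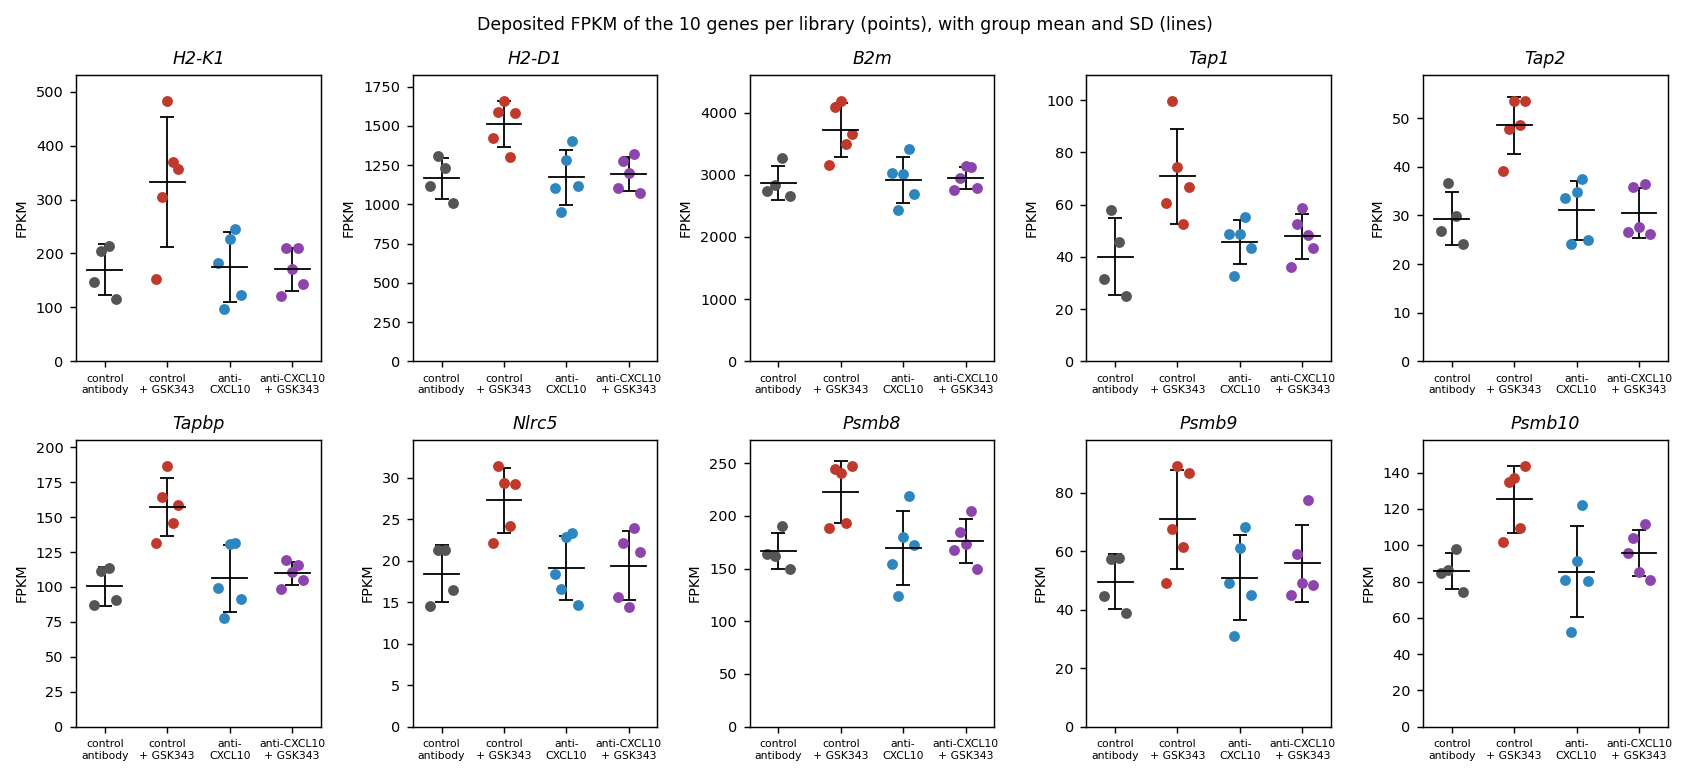
FPKM of each of the 10 members (y axis, linear, starting at 0) in every library of the 4 groups; points are libraries, and the bar and whisker are the group mean and SD. Tumors given control antibody with GSK343 lie highest on average for every member, and the other 3 groups overlap.

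The first question was whether EZH2 inhibition moves the class I genes when CXCL10 is not blocked. Under control antibody, all 10 members had higher mean FPKM with GSK343 than without, by 1.29-fold (B2m) to 1.96-fold (H2-K1). Expression of 4 members rose past the threshold, B2m, Tap1, Tap2 and Tapbp, against 4.36% of all tested genes called higher (limma on log2(FPKM + 1), Benjamini-Hochberg adjusted p under 0.05 over all 14385 genes). The members' median log2 change was 0.54, beside -0.03 for all genes. At an unadjusted p under 0.05 the count was 10 of 10, beside 18.9% of all genes in either direction. Treated and control libraries did not overlap for 4 members, Tap2, Tapbp, Nlrc5 and Psmb10, beside 4.05% of all genes that were higher without overlap.

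H2-K1 encodes a classical heavy chain, the part of the molecule that holds the peptide. It was at 146, 204, 213 and 116 FPKM in control antibody replicates 1, 2, 3 and 5, and at 152, 304, 484, 369 and 357 FPKM in replicates 1 to 5 with GSK343. Treated replicate 1 lay within the control range, and the other 4 treated libraries lay above every control. The log2 change on the log2(FPKM + 1) scale was 0.91 ± 0.32 (SE; 95% interval 0.25 to 1.58), the largest estimate of the 10, but with this spread the limma adjusted p was 0.11.

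H2-D1, the other classical heavy chain gene of this strain, was expressed several times as highly. Its levels were 1118, 1308, 1234 and 1008 FPKM in the controls and 1423, 1590.0, 1662, 1300.1 and 1582 FPKM with GSK343. Here treated replicate 4, not replicate 1, fell just below the highest control, and the others were above it. The change was 0.37 ± 0.11 (interval 0.13 to 0.61) with a limma adjusted p of 0.0663.

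B2m encodes beta-2-microglobulin, the invariant light chain without which class I molecules do not reach the surface. Controls were at 2735, 2838, 3268 and 2653 FPKM, and treated tumors at 3153, 4094, 4194, 3491 and 3661 FPKM. Treated replicate 1 was below control replicate 3, and the remaining treated libraries exceeded all controls. B2m rose by 0.37 ± 0.11 (interval 0.15 to 0.59, limma adjusted p = 0.049), close to the threshold, and it lost the call under most of the alternatives tried.

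Tap1 and Tap2 encode the subunits of the peptide transporter. Tap1 was at 31.6, 57.9, 45.6 and 24.8 FPKM in controls and 60.4, 99.8, 74.4, 52.5 and 66.9 FPKM with GSK343, so treated replicate 4 alone was below the highest control. Tap1 rose by 0.85 ± 0.22 (interval 0.38 to 1.32, limma adjusted p = 0.0325). Tap2 was at 26.8, 36.6, 29.96 and 24.1 FPKM in controls and 39.2, 47.8, 53.6, 48.5 and 53.6 FPKM with GSK343, with no overlap. Tap2 rose by 0.71 ± 0.15 (interval 0.39 to 1.04, limma adjusted p = 0.0117), the smallest adjusted p among the members.

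Tapbp encodes tapasin, which bridges the transporter and the empty class I molecule and helps select peptides. It was at 86.8, 111, 113 and 90.3 FPKM in controls and 131, 164, 187, 146 and 159 FPKM in treated tumors, again with no overlap. Tapbp rose by 0.64 ± 0.14 (interval 0.35 to 0.94, limma adjusted p = 0.0137). The 3 genes of peptide transport and loading thus all passed, beside 1 of 3 heavy and light chain genes and 4.36% of all genes called higher. H2-K1 had the largest estimate without being called, and a difference between these sets of genes was not tested.

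Nlrc5 encodes the transactivator that is recruited to class I promoters, and it was not called. Its levels were 14.6, 21.3, 21.3 and 16.5 FPKM in controls and 22.2, 31.4, 29.4, 24.2 and 29.2 FPKM with GSK343, so that all 5 treated libraries were above every control. The change was 0.55 ± 0.17 (interval 0.19 to 0.90) with a limma adjusted p of 0.0679.

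Psmb8, Psmb9 and Psmb10 encode the catalytic subunits that are put in place of Psmb5, Psmb6 and Psmb7 when an immunoproteasome is assembled, and none of the 3 was called. Psmb8 was at 164, 162, 189.9 and 150 FPKM in controls and 188, 245, 241, 193 and 247 FPKM with GSK343, a change of 0.41 ± 0.14 (limma adjusted p = 0.0987) with only treated replicate 1 below the highest control. Psmb9 was at 44.8, 57.2, 57.8 and 38.7 FPKM in controls and 49.3, 67.7, 89.2, 61.5 and 86.8 FPKM with GSK343, a change of 0.49 ± 0.22 (limma adjusted p = 0.231) with the same library inside the control range. Psmb10 was at 84.8, 86.1, 98.1 and 74.1 FPKM in controls and 102, 135, 137, 109 and 144 FPKM with GSK343, a change of 0.54 ± 0.18 (limma adjusted p = 0.0921) without overlap.

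The constitutive partners were not called. Psmb5 averaged 91.0 FPKM in controls and 95.6 FPKM with GSK343, Psmb6 192 and 200.2 FPKM, and Psmb7 155 and 160.0 FPKM. Their changes were 0.07 ± 0.13 (95% interval -0.20 to 0.34), 0.06 ± 0.11 (-0.17 to 0.30) and 0.05 ± 0.09 (-0.13 to 0.23), with upper bounds below 0.37, the smallest estimate among the 10 members. The limma adjusted p values were 0.833, 0.828 and 0.836.

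A ratio of FPKM of immunoproteasome to constitutive subunit within a library does not depend on how the library was scaled. The tests used differences of log2(FPKM + 1), and the added 1 leaves some dependence on scaling. Psmb8 over Psmb5 was 1.65, 1.83, 2.06 and 1.79 in controls and 1.98, 2.52, 2.74, 2.1 and 2.33 with GSK343. Psmb9 over Psmb6 averaged 0.258 ± 0.0417 (SD, n = 4) and 0.353 ± 0.0738 (n = 5), and Psmb10 over Psmb7 averaged 0.553 ± 0.0513 and 0.785 ± 0.124. In each ratio 4 of 5 treated libraries were above the highest control and treated replicate 1 was not. The mean log2 ratios differed by 0.34 ± 0.11, 0.43 ± 0.18 and 0.49 ± 0.12 (SE), with exact two-sided permutation p of 0.0317, 0.0794 and 0.0317, where 0.0159 is the smallest that 4 against 5 allows. Over the 12 ratio comparisons made, the exact p adjusted by Benjamini-Hochberg was 0.0952, 0.159 and 0.0952, so none of the 3 passed. Even the smallest possible exact p in all 3 ratios would not pass this adjustment without small values in other comparisons. Not passing therefore does not show that the ratios were unchanged.

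**Figure D2:**
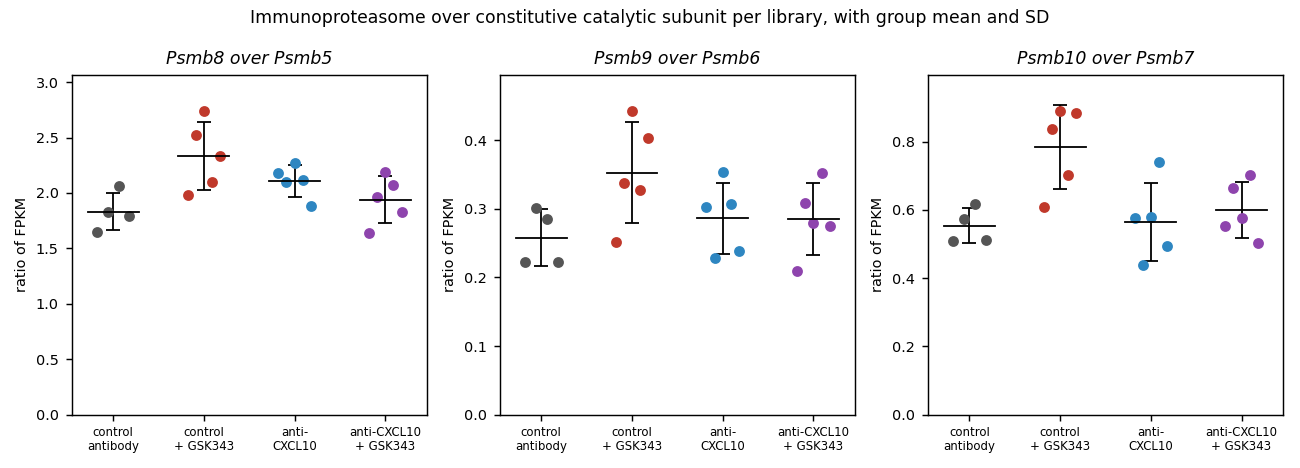
Ratio of each immunoproteasome subunit to the constitutive subunit it replaces (y axis, ratio of FPKM, starting at 0) by library and group, with group mean and SD. Under control antibody 4 of 5 libraries with GSK343 lie above the highest library without it in each of the 3 ratios.

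The next question was whether GSK343 has the same association when CXCL10 is blocked. With anti-CXCL10, 0 of 10 members were called, and limma called 0% of all 14385 genes; at an unadjusted p under 0.05 the counts were 0 of 10 members and 418 of all genes (2.91%). The members' changes lay between -0.01 (Tap2) and 0.20 (Psmb10), with a median of 0.05 beside 0.01 for all genes. All 10 limma adjusted p values were 1.

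H2-K1 was at 182, 96.2, 227, 245 and 122 FPKM with anti-CXCL10 alone and at 120.4, 210.3, 170.5, 209.7 and 144 FPKM with GSK343 added, and the untreated group had both the lowest and the highest library. B2m was at 3027, 2438, 3009, 3409 and 2689 FPKM alone and 2762, 2950.0, 3143, 3123 and 2794 FPKM with GSK343, so the treated libraries lay within the untreated range. Tap2 was at 33.6, 24.2, 34.9, 37.6 and 24.9 FPKM alone and 26.6, 35.8, 27.7, 36.5 and 26.2 FPKM with GSK343. The groups overlapped widely for each of these 3 genes.

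Tapbp was at 99.4, 78.1, 131, 131 and 91.2 FPKM alone and 98.8, 119, 110.5, 115 and 105 FPKM with GSK343. Nlrc5 was at 18.4, 16.6, 22.8, 23.4 and 14.6 FPKM alone and 15.6, 22.1, 14.5, 23.9 and 21.04 FPKM with GSK343. Tap1 was at 48.5, 32.7, 48.7, 55.3 and 43.4 FPKM alone and 36.2, 52.5, 58.6, 48.4 and 43.2 FPKM with GSK343. None of these 3 showed a shift larger than the spread within its groups.

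The remaining members are given by group. H2-D1 averaged 1172 FPKM ± 176 (SD, n = 5) alone and 1195 FPKM ± 108 with GSK343. Psmb8 averaged 169.7 and 176 FPKM, Psmb9 51.0 and 55.9 FPKM, and Psmb10 85.4 and 95.6 FPKM, each with overlapping libraries. The 95% intervals of the log2 change were -0.18 to 0.24 for B2m, -0.32 to 0.29 for Tap2, -0.21 to 0.36 for Tapbp, -0.15 to 0.55 for Psmb10 and -0.60 to 0.65 for H2-K1. The upper bounds for B2m, Tap2, Tapbp and H2-K1 are below the estimates under control antibody (0.37, 0.71, 0.64 and 0.91), which carry their own error, and the interval for Psmb10 includes its estimate of 0.54.

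Whether the GSK343 change differs between the antibodies is answered by the interaction, not by the separate counts. All 10 members had negative interaction estimates, from -0.33 (Psmb10) to -0.89 (H2-K1), with a median of -0.44 beside 0.04 for all genes. With the skeletal muscle score as covariate, chosen after seeing the data, the median was -0.23 and Psmb9 had 0.03. In limma 0 of 10 passed after adjustment, where 9 genes, 0.0626% of those tested, were called lower and none was called higher. At an unadjusted p under 0.05 the count was 6 of 10 members and 12.9% of all genes. Tap2 had the smallest limma adjusted p, 0.156, with an estimate of -0.73 ± 0.21 (interval -1.17 to -0.29). A difference of the GSK343 change between antibodies was therefore not established for any member.

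**Figure D3:**
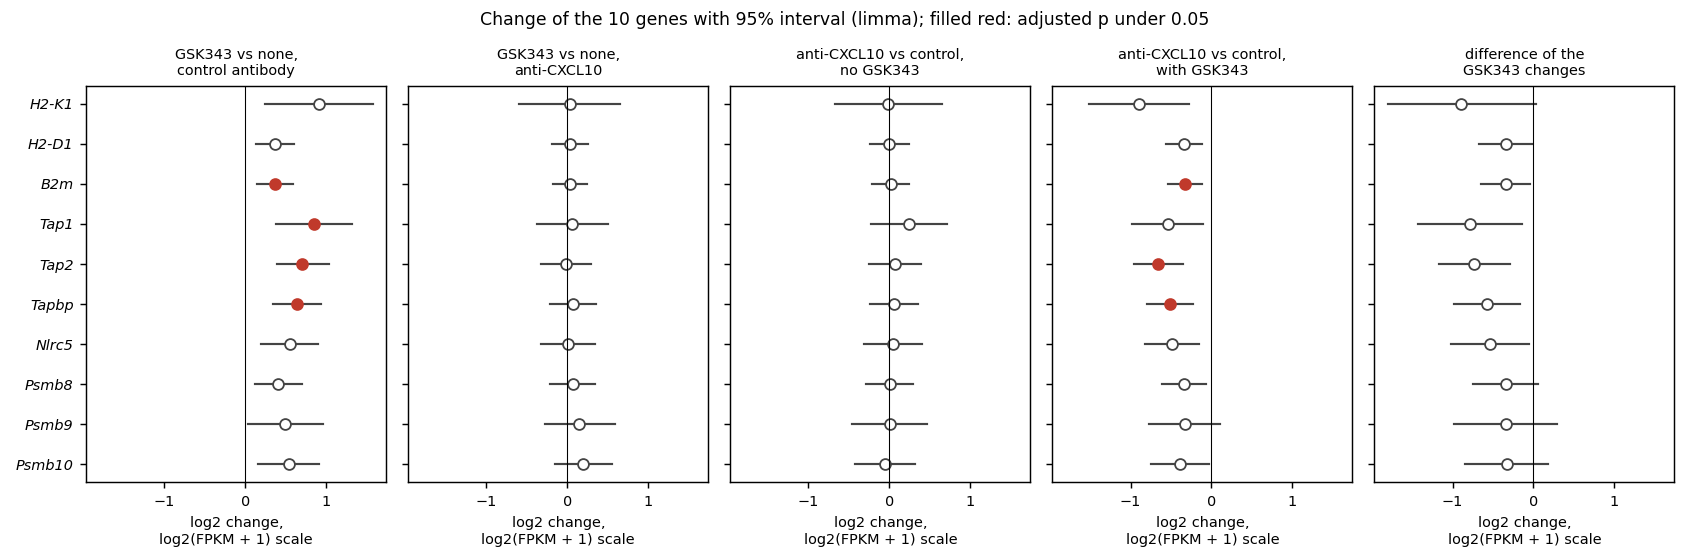
Log2 change of each member on the log2(FPKM + 1) scale (x axis) with its 95% interval, in each comparison; red points passed the adjusted threshold. B2m, Tap1, Tap2 and Tapbp are red for GSK343 under control antibody, and B2m, Tap2 and Tapbp for anti-CXCL10 with GSK343; the 2 comparisons share the 5 libraries given control antibody with GSK343.

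Blocking CXCL10 without GSK343 left the members near the control levels. No member was called, beside 2 genes (0.0139%) called lower in the whole table; at an unadjusted p under 0.05 limma gave 0 of 10 members and 6.81% of all genes. The changes lay between -0.05 (Psmb10) and 0.24 (Tap1, SE 0.22, limma adjusted p = 0.837, the smallest of the 10), with a median of 0.01 beside -0.01 for all genes. Psmb8 over Psmb5 averaged 1.83 ± 0.168 (SD, n = 4) with control antibody and 2.11 ± 0.147 (n = 5) with anti-CXCL10, a log2 difference of 0.20 ± 0.08 (exact permutation p = 0.0317, adjusted 0.0952) that did not pass; 4 of 5 anti-CXCL10 libraries were above the highest control.

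Among tumors that all received GSK343, 3 of 10 members were lower with anti-CXCL10 than with control antibody, Tap2, Tapbp and B2m, beside 6.64% of all genes called lower. This comparison uses the same 5 libraries of control antibody with GSK343 as the first, so its result is not a separate observation of them. Tap2 fell by 0.66 on the log2 scale (SE 0.14, interval -0.96 to -0.35, limma adjusted p = 0.00902), Tapbp fell by 0.51 (SE 0.13, interval -0.79 to -0.23, limma adjusted p = 0.0231) and B2m fell by 0.33 (SE 0.10, interval -0.54 to -0.12, limma adjusted p = 0.0458). These were also the 3 members whose libraries did not overlap, beside 4.65% of all genes that were lower without overlap. The B2m call was lost in 15 of 19 fits that left out 1 library (estimates -0.38 to -0.28) and with only the groups compared (limma adjusted p = 0.0664), the Tapbp call was lost in 4 of 19, and all 3 calls were lost without the 3 libraries highest in muscle markers or with the muscle score as covariate. In the last 2 fits limma called 3.45% and 0.952% of all genes in either direction, beside 10.1% in the main fit. H2-K1 had the largest estimate of the 10, -0.90 ± 0.30, with a limma adjusted p of 0.065, and was not called. Nlrc5 had -0.48 (limma adjusted p = 0.0612) and H2-D1 had -0.34 (0.0549). Tap1, Psmb8, Psmb9 and Psmb10 had estimates of -0.54, -0.34, -0.33 and -0.39 and limma adjusted p of 0.111, 0.112, 0.334 and 0.153. At an unadjusted p under 0.05 limma gave 9 of 10 members and 25.7% of all genes, and the median was -0.43 beside 0.03 for all genes. Psmb10 over Psmb7 was lower by 0.38 ± 0.14 on the log2 scale (exact permutation p = 0.0317, adjusted 0.0952).

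The wider pathway was read from lists of genes around the members, under control antibody with and without GSK343. In this comparison 4.36% of all genes were called higher and 1.11% lower, and 0 genes of these lists were called lower. Of 17 other class I genes tested, of 23 listed, 4 rose in limma: H2-M2 by 1.38 ± 0.36 (adjusted p = 0.0319), H2-Q7 by 0.93 ± 0.23 (0.0222), H2-T24 by 0.63 ± 0.18 (0.0464) and H2-T23, the mouse Qa-1 gene, by 0.59 ± 0.16 (0.0342). H2-K2 and H2-T22 had changes of 0.39 and 0.37, both with a limma adjusted p of 0.0568. The list's median was 0.37.

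Of 6 genes of peptide trimming and loading in the endoplasmic reticulum, Tapbpl alone rose, by 0.54 ± 0.14 (limma adjusted p = 0.0284). Tapbpl encodes a peptide editor related to tapasin. The trimming enzyme gene Erap1 had a change of 0.21, and the general chaperone genes Calr, Canx and Pdia3, whose products serve many other glycoproteins, had -0.09, -0.20 and 0.00.

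Of 11 further subunits of the proteasome core none was called, and their changes lay between -0.08 and 0.27 with a median of 0.08. Among 5 activator and assembly genes Psme2 rose by 0.60 ± 0.16 (limma adjusted p = 0.0354). Psme2 and Psme1 encode the interferon-inducible PA28 cap, and Psme1 had a change of 0.39 ± 0.15 (limma adjusted p = 0.148). Pomp, the assembly chaperone, had 0.12.

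Of 9 regulators of class I transcription 4 rose: Stat2 by 0.90 ± 0.19 (limma adjusted p = 0.0105), Irf8 by 0.61 ± 0.15 (0.0239), Irf9 by 0.65 ± 0.17 (0.0354) and Irf2 by 0.28 ± 0.08 (0.0377). STAT2 and IRF9 carry interferon signals to the nucleus. Ciita, the class II counterpart of Nlrc5, had 0.65 (limma adjusted p = 0.132). Of 6 genes for interferon-gamma, its receptor and its signal, Ifng rose by 1.52 ± 0.30 and Socs1, the feedback inhibitor of that signal, by 1.3 ± 0.26 (limma adjusted p = 0.00756 for both), while the receptor genes Ifngr1 and Ifngr2 had -0.07 and 0.20 and Jak1 and Jak2 had 0.31 and 0.21. Irf1, an interferon-induced transcription factor gene, had 0.01 ± 0.42 (limma adjusted p = 0.996).

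With anti-CXCL10, GSK343 moved 0 genes of these lists past the threshold, as it moved none in the table. Among GSK343-treated tumors, anti-CXCL10 was accompanied by lower limma-called expression of H2-M2 (-1.64), H2-T23 (-0.49), H2-T22 (-0.34), the core subunit gene Psma4 (-0.25), Stat2 (-0.64), Irf2 (-0.24), Ifng (-1.19) and Socs1 (-1.06). These were 3 of 17 other class I genes, 1 of 11 further core subunits, 2 of 9 regulators and 2 of 6 interferon-gamma genes. Of 6 trimming and loading genes and 5 activator and assembly genes, 0 were called. Limma called 6.64% of all genes lower in this comparison.

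**Figure D4:**
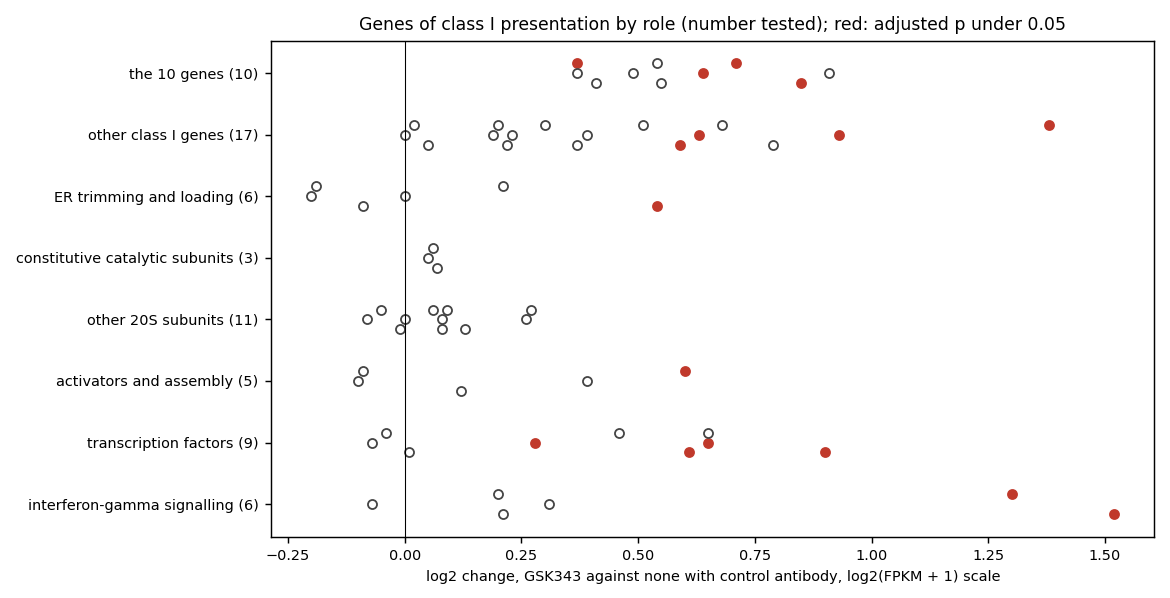
Log2 change with GSK343 under control antibody (x axis, log2(FPKM + 1) scale) of the 10 members and of every tested gene in the other pathway lists; red points passed the adjusted threshold. The 3 constitutive catalytic subunits lie between 0.05 and 0.07, and the 3 immunoproteasome subunits between 0.41 and 0.54.

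The members differed in how far they ranged over the 19 libraries. H2-K1 ranged 5.03-fold, from 96.2 to 484 FPKM, and its SD on the log2 scale was larger than that of 93.7% of genes. Tap1 ranged 4.02-fold, and Psmb9, Psmb10, Tapbp, Tap2, Nlrc5 and Psmb8 followed in that order, from 2.89-fold down to 2-fold. H2-D1 (1.75-fold) and B2m (1.72-fold), which had the highest levels, ranged least. The members tended to be high or low in the same libraries: control antibody with GSK343 replicate 3 was the highest library for 6 members and replicates 2 and 5 for 2 each, and anti-CXCL10 replicate 2 was the lowest for 7. Pearson's r of a member with the mean of the other 9 lay between 0.839 (Tap1) and 0.968 (Tapbp) over 19 libraries, and between 0.709 and 0.945 once group means were removed. These values are descriptive, since the libraries share their groups, their cell mixture and their scaling.

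Outside the members, the genes of most similar pattern were ranked by Pearson's r with the members' mean profile over the 19 libraries, among 9581 genes with a mean of at least 5 FPKM. The 10 highest were H2-DMa (r = 0.973), H2-DMb2 (0.969), H2-Eb1 (0.965), H2-Q7 (0.965), H2-Ab1 (0.958), Oas1a (0.957), Cyba (0.956), Zbp1 (0.952), Itgb7 (0.949) and H2-DMb1 (0.947). With group means removed, r for these genes lay between 0.892 and 0.939. H2-Eb1, H2-Ab1, H2-DMa, H2-DMb1 and H2-DMb2 are MHC class II genes, which professional antigen-presenting cells express, Oas1a and Zbp1 are interferon-induced genes, and Cyba and Itgb7 are expressed mainly by leukocytes.

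Markers of other cells moved in the same libraries. Under control antibody, GSK343 was accompanied by higher limma-called expression of 8 of 10 pan-leukocyte, 13 of 16 T cell and 8 of 11 macrophage markers, beside 4.36% of all genes. Macrophage marker changes ran from -0.36 to 1.1. Of 5 tested natural killer and 5 tested B and plasma cell markers, 4 each were called higher, with medians of 1.39 and 2.89. Limma called 0 of 7 endothelial, 0 of 8 fibroblast and 0 of 8 keratinocyte markers, and 1 of 17 skeletal muscle markers higher. Lower expression was called for 4 of 16 hepatocyte or hepatoma markers, beside 1.11% of all genes. The summed FPKM of the pan-leukocyte list was 274 to 382 in controls and 478 to 896 with GSK343, against 273 to 440.0 with anti-CXCL10 alone and 351 to 420.4 with anti-CXCL10 and GSK343; the T cell list read 75.9 to 126, 150.4 to 384, 88.8 to 148 and 98.3 to 163 in the same order. None of the tested pan-leukocyte, T cell or macrophage markers was at 0 in any library. The hepatocyte or hepatoma list, which includes Afp and Alb, was present in every library, with sums of 7335 to 9474, 4714 to 6926, 7699 to 12046 and 7068 to 11675 FPKM, and only 1 of its 16 genes was at 0 in 1 library. For anti-CXCL10 against control antibody with GSK343, limma called lower 6 of 10 pan-leukocyte, 11 of 16 T cell and 7 of 11 macrophage markers. It also called lower 3 of 5 natural killer, 4 of 5 B and plasma cell, 3 of 8 fibroblast and 1 of 17 skeletal muscle markers. No endothelial or keratinocyte marker was called, and 6 of 16 hepatocyte or hepatoma markers were called higher. Of all genes, 6.64% were called lower and 10.1% in either direction. In bulk tumors, more cells of a type and more RNA per cell cannot be told apart, and the part of leukocyte content in the members' changes was not tested.

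**Figure D5:**
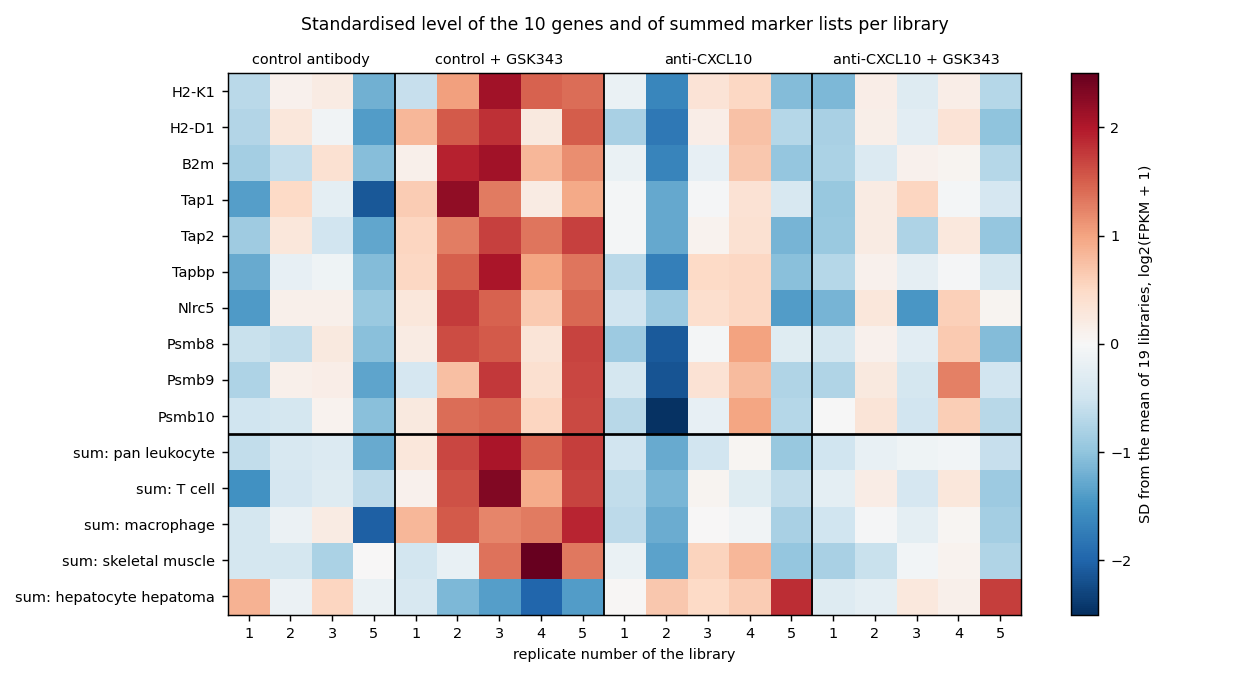
Heat map of the 10 members (upper rows) and of summed marker lists (lower rows) in each of the 19 libraries (columns, by group and replicate number); colour is the distance from the row's mean in SD, on the log2(FPKM + 1) scale. Libraries given control antibody with GSK343 are highest in the pan-leukocyte sum (478 to 896 FPKM), and 3 of them, replicates 3, 4 and 5, are the highest of all 19 in muscle markers.

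Skeletal muscle markers, a sign of host tissue around a subcutaneous tumor, summed to 84.8 to 184 FPKM in controls and to 117, 154, 689, 2802 and 660 FPKM in replicates 1 to 5 of control antibody with GSK343. Without replicates 3, 4 and 5 of that group, 2 treated libraries remained and 0 of 10 members were called in limma, while the changes were 0.33 for B2m (adjusted p = 0.31), 1.01 for Tap1 (0.142), 0.56 for Tap2 (0.234) and 0.56 for Tapbp (0.20), and the members' median was 0.42. With the muscle score as a covariate, chosen after seeing the data, the changes were 0.26 (limma adjusted p = 0.422), 0.84 (0.214), 0.50 (0.207) and 0.46 (0.221), again with 0 calls and a median of 0.35. In these 2 fits limma called 0.104% and 0.146% of all genes in either direction, beside 5.47% in the main fit. The part of muscle tissue in the members' changes was not tested beyond these fits.

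Single libraries also decided the counts. With GSK343 under control antibody, limma called 8 members without control antibody with GSK343 replicate 1, which had the lowest treated level of most members, and 7 without anti-CXCL10 replicate 2, which enters only through the shared spread. It called 1 without control antibody replicate 1 and 0 without control antibody replicate 5, and 2 without treated replicate 2, 3 or 5. The share of all genes called moved too, from 5.47% with all libraries to 9.66% and 5.89% in the first 2 of these fits. It was 2.08% without control antibody replicate 1, 2.22% without control antibody replicate 5 and 2.61% to 4.36% in the last 3 fits. Tap2 kept its call in each of these except without control replicate 5 (adjusted p = 0.0534), and Tapbp lost it without control replicate 1 (0.062) or 5 (0.0552). Tap1 lost it without control replicate 1 (adjusted p = 0.125) or 5 (0.131), without treated replicate 2 (0.0863), 3 (0.0824) or 5 (0.0538), and with only the groups compared (0.123), with estimates of 0.65 to 1.05 when 1 library was left out.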

How the data were processed

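The submitters' processing notes name StringTie 1.3.3b, HTSeq 0.6.0, the aligners HISAT2 2.1.0 and TopHat2 2.1.0, and Trimmomatic 0.33, with no order. The deposited table holds FPKM values made by the authors, 14646 rows on GRCm38; the unit is inferred, since length-weighted sums vary less between libraries (0.79%) than plain sums (4.06%, 533606 to 629679). Whole reads could not be recovered, so depth is unknown. Rows sharing a gene ID (21 rows, 8 IDs) were added, giving 14633 genes. Genes with at least 1 FPKM in at least 5 of 19 libraries were tested: 14385 kept, 248 removed.

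log2(FPKM + 1) was fitted with limma 3.58.1 (R 4.3.3; 4 group means, intensity trend, robust moderation), adjusted by Benjamini-Hochberg over all tested genes, threshold 0.05. Subunit ratios, as differences of log2(FPKM + 1), used two-sided exact permutation tests (SciPy 1.17.1), adjusted over 12 comparisons. Scripts were tested on simulated data. Named genes: all members, up to 6 genes per pathway list by p under control antibody, and the 10 of most similar pattern; Irf1 falls outside this rule and was named after its value was seen. The members and lists were chosen with earlier results of these data known. Alternatives changed the pseudocount, filter, scaling, moderation, libraries, replicate block and, added later, a muscle covariate. A gene of the transcription list is not reported here.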

Additional observations from a re-analysis of the deposited data

How the results depend on the processing

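Depth is unknown and limits what can be said of small differences. Under control antibody the GSK343 count of 4 members became 2 with only the groups compared, 0 without the 3 libraries of highest muscle marker level, 0 with the muscle score as covariate, and 0 to 8 leaving out 1 library. The share of all genes called in either direction was 5.47% in the main fit and 1.62%, 0.104% and 0.146% in the first 3 of these settings. Leaving out 1 library, that share was 2.08% to 9.66%. With GSK343, the antibody count of 3 became 5 under median-ratio scaling, 2 with only the groups compared, 0 without the muscle libraries, 0 with the covariate and 1 to 5 leaving out 1 library: 5 without control antibody with GSK343 replicate 1 or anti-CXCL10 replicate 2, and 1 without control antibody with GSK343 replicate 2 or 3 or anti-CXCL10 with GSK343 replicate 1 or 5. For this antibody comparison limma called 10.1% of all genes in the main fit and 10.3%, 6.99%, 3.45% and 0.952% in the first 4 of these settings. Leaving out 1 library, the share was 5.82% to 12.7%. The interaction count of 0 became 1 (range 0 to 1) only without control antibody with GSK343 replicate 1, where limma gave Tap2 -0.80 (adjusted p = 0.0433) and called 3.31% of all genes. The interaction could not be computed with only the groups compared. The causes were not tested. The other 2 counts were 0 in every setting run, and no subunit ratio passed in any. Without the 3 muscle libraries, ratio comparisons using control antibody with GSK343 had too few libraries left to pass. Not passing there does not show stability.

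Replicate numbers were not used as pairs in the main fit: correlations of same-numbered deviations ran from -0.182 to 0.318. Libraries correlated best with their own number in 3 of 4 cases for GSK343 under control antibody and 2 of 5 under anti-CXCL10. For the antibody without and with GSK343 it was 1 of 4 and 2 of 5. Whether the numbers pair the samples is not settled by this check. For control antibody with GSK343, sample numbers in the labels run in another order than replicate numbers. Pairs by sample number were not checked. With the replicate number as a block, 3 members were called for GSK343 under control antibody (B2m 0.35, limma adjusted p = 0.0653) and 4 for the antibody with GSK343 (H2-K1 -0.90, limma adjusted p = 0.0363). In these comparisons limma called 5.28% and 10.4% of all genes.

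Near-zero changes that turned sign, none of them called: for anti-CXCL10 without GSK343, H2-D1 -0.02, B2m 0, Psmb8 -0.03 and Psmb9 -0.06 with the replicate block, H2-K1 0.01 under median-ratio scaling, H2-K1 0.05 and B2m -0.10 under quantile normalization, and H2-D1 -0.01, B2m -0.01, Psmb8 -0.02 and Psmb9 -0.05 with the covariate; for GSK343 under anti-CXCL10, H2-K1 -0.01 and Nlrc5 -0.01 under quantile normalization and Tap2 0.03 with the covariate; for the interaction, Psmb9 0.03 with the covariate. Leaving out 1 library, the ranges that crossed 0 for GSK343 under anti-CXCL10 were -0.17 to 0.17 (H2-K1), -0.04 to 0.10 (H2-D1), -0.04 to 0.09 (B2m), -0.05 to 0.16 (Tap1), -0.10 to 0.06 (Tap2), -0.03 to 0.16 (Tapbp), -0.07 to 0.11 (Nlrc5), -0.04 to 0.17 (Psmb8), -0.01 to 0.27 (Psmb9) and -0.09 to 0.10 (Psmb9 over Psmb6). For anti-CXCL10 without GSK343 they were -0.17 to 0.19 (H2-K1), -0.07 to 0.07 (H2-D1), -0.04 to 0.08 (B2m), -0.02 to 0.18 (Tap2), -0.02 to 0.16 (Tapbp), -0.05 to 0.14 (Nlrc5), -0.09 to 0.11 (Psmb8), -0.11 to 0.17 (Psmb9), -0.19 to 0.11 (Psmb10) and -0.09 to 0.10 (Psmb10 over Psmb7).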

Other observations

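The FPKM values of the heavy chain genes did not keep a fixed proportion. How reads that match both genes were counted is not given, so the split between them is uncertain. H2-D1 over H2-K1, a ratio of FPKM within a library, was 7.64, 6.40, 5.78 and 8.68 in control antibody tumors and 9.34, 5.23, 3.43, 3.52 and 4.43 with GSK343. Treated replicate 1 had the highest ratio of its group, above every control, and the other 4 treated libraries were below every control. The ratio averaged 7.29 ± 2.04 (SD, n = 5) with anti-CXCL10 alone and 7.21 ± 1.23 (n = 5) with anti-CXCL10 and GSK343. The difference between groups was not tested, and the ratio was singled out after its values had been seen.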
